A study of Arabidopsis thaliana with 12 samples.

Results

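The WRKY transcription factors are a plant gene family defined by a DNA-binding domain that carries the amino acids W, R, K and Y in 1 stretch. Members were taken from the deposited gene table by name: every row whose gene symbol was WRKY followed by a number, with or without the prefix AT. The rule matched 71 of 33602 genes, and leaving out *WRKY70*, as the rule asks, gave 70 members. A further 4 rows were annotated as WRKY family proteins without such a symbol and were not used. The symbols, not the measured levels, chose the members.

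WRKY proteins bind the W-box, a short DNA motif with the core TTGAC, and many of them switch immune, wounding and senescence genes on or off. Several act downstream of MAP kinase cascades, several bind proteins with a VQ motif, and many WRKY genes carry W-boxes in their own promoters. In seedlings, single members are also known from trichome formation, phosphate starvation and heat tolerance.

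RNA from whole *Arabidopsis thaliana* seedlings, roots included, was sequenced from 4 genotypes in the Col-0 ecotype with 3 libraries each. Seedlings were grown for 8 days on agar plates in continuous light, and about 200 were pooled for each library. The 4 genotypes were *jazQ phyB*, which joins all of these mutations, *phyB*, which carries the allele *phyB-9* of the red light receptor gene, *jazQ*, in which T-DNA disrupts the JAZ genes *JAZ10*, *JAZ9*, *JAZ4*, *JAZ3* and *JAZ1*, and wild type (WT). JAZ proteins repress jasmonate responses. Each mutant genotype was 1 line, and a pooled whole seedling cannot show in which cells a gene was read.

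Libraries held 12750074 to 26347184 counts, so that 3 counts corresponded to 0.114 to 0.235 CPM, a count scaled to the library total, and WRKY genes took 0.104 to 0.14% of the counts. *JAZ1* fell by 3.02 on the log2 scale in *jazQ phyB* and by 3.26 in *jazQ* against WT, and *JAZ4* fell by 0.91 in *jazQ phyB* and by 1.22 in *jazQ*. *JAZ9* was not called in either. *JAZ3* was higher by 5.17 in *jazQ phyB* and by 5.47 in *jazQ*, and *JAZ10* by 5.84 and 6.16. Counts per gene take reads from any part of a gene with an insertion, so they separate the libraries but do not read the alleles. *PHYB* fell by 0.64 in *jazQ phyB* and by 0.60 in *phyB*. Summed over 12 root markers, the level was 184 to 210 TPM, a level scaled to transcript length and library size, in *jazQ phyB*, 186 to 195 in *phyB*, 122 to 125 in *jazQ* and 122 to 133 in WT, and no root marker was at 0 throughout. Summed over 5 markers of photosynthetic cells, it was 15601 to 19872 TPM in *jazQ phyB*, 13625 to 14494 in *phyB*, 17588 to 19739 in *jazQ* and 17914 to 18568 in WT. The part of these tissue shares in the WRKY results was not tested, and fewer cells of a type cannot be told apart from less RNA per cell. *SAG12*, a marker of senescing leaves, was at 0 in all 12 libraries.

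The W-boxes upstream of *WRKY31*, *WRKY39* and *WRKY53*, which were called in a comparison below, are shown here. For *WRKY33* and *WRKY30*, in which 1 WT library stood apart, all W-boxes of *WRKY33* and the farthest of the 3 of *WRKY30* are shown. So is a G-box of *WRKY44*, which was also called. Each line gives the member, the RefSeq position in the TAIR10.1 assembly, and the bases 5′ to 3′ along the gene's strand, with the motif in capitals. Capitals that do not begin with TTGAC are W-boxes read on the other strand, except in the last line, which shows a G-box.
WRKY33, plus strand, chr2:16107931-16107960: tagtacacctacAGTCAAaattttcaagat
WRKY33, plus strand, chr2:16108127-16108156: tcaacgtttgagAGTCAAggccacaaggtc
WRKY33, plus strand, chr2:16108191-16108220: catattttcaacGGTCAAactttttatcac
WRKY53, minus strand, chr4:12394184-12394213: attggtcagcctTTGACCttatactctttc
WRKY53, minus strand, chr4:12394036-12394065: gtttggtcatttGGTCAAattttcaaacac
WRKY30, minus strand, chr5:8154817-8154846: tttccaaattcaTTGACCaaagactggtct
WRKY31, minus strand, chr4:11695021-11695050: aagaagagaaatTTGACTttttaatatctt
WRKY39, minus strand, chr3:1268856-1268878: gatatTTGACTctaatccattct
WRKY44 (G-box), plus strand, chr2:15644616-15644645: tacagttcagttCACGTGtttacttcgaac

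The 3 *WRKY33* sites lay 292, 96 and 32 bases before the annotated gene start, the 2 *WRKY53* sites 219 and 71 bases before it, and *WRKY30* held 3 sites, at 124, 69 and 61 bases. The *WRKY39* site lay 495 bases before the start, at the edge of the window searched. Of the 70 members, 38 (54.3%) held a full W-box (TTGACC or TTGACT on either strand) in the 500 bases before the gene start, as did 45.2% of 27443 protein-coding genes. The core TTGAC, which each full W-box contains, was found for 52 members (74.3%) and 67.4% of protein-coding genes. The G-box CACGTG, a motif bound by bHLH and bZIP proteins, was found for 7 members (10%) and 9.35% of protein-coding genes. *WRKY3*, *WRKY14*, *WRKY38*, *WRKY40* and *WRKY46* held the core but no full W-box in this window. A match is only a description of the letters.

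Levels of the members spread over a wide range. The highest means over the 12 libraries were 88.7 TPM for *WRKY33*, a factor for resistance to necrotrophic fungi, 72.6 for *WRKY39*, a member linked to heat tolerance, 71.8 for *WRKY15*, 53.3 for *WRKY11*, which represses basal resistance, and 39.7 for *WRKY65*. These 5 members held 32.9% of the summed TPM of the family, and the 10 highest held 50%. A mean of at least 10 TPM was reached by 29 members, 27 lay between 1 and 10 TPM, and 14 lay below 1 TPM. The sum over the family was 950.7 to 1055.6 TPM in *jazQ phyB*, 887.9 to 968.6 in *phyB*, 978.9 to 1046.0 in *jazQ* and 919.1 to 1180.9 in WT. The range of *phyB* lay below that of *jazQ*, and every other pair of genotypes overlapped.

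Members were grouped by the number of WRKY domains and the type of zinc finger, read from the annotated coding sequences, and by the usual subgroup lists. Group IId, whose members also bind calmodulin, held the largest sum, 287 TPM over 7 members with a median of 37.8 TPM. Group I, with 2 WRKY domains, summed to 264 TPM over 12 members and group IIe to 128 TPM over 8. Group IIb summed to 100 TPM over 8 members, group IIc to 90.6 TPM over 17 and group IIa, the *WRKY18*, *WRKY40* and *WRKY60* trio of immune regulators, to 74.2 TPM. Group III, which includes the senescence regulator *WRKY53* and the stress-responsive *WRKY46*, was the lowest, with 30.6 TPM over 12 members and a median of 0.545 TPM. *WRKY10*, *WRKY19* and *WRKY52* were left outside the groups. The sums, medians and ranks cover only the members used here, so *WRKY70* is in none of the groups. *WRKY52*, also known as the immune receptor *RRS1*, stood at 8.75 TPM and *WRKY19* at 8.39 TPM.

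**Figure D1:**
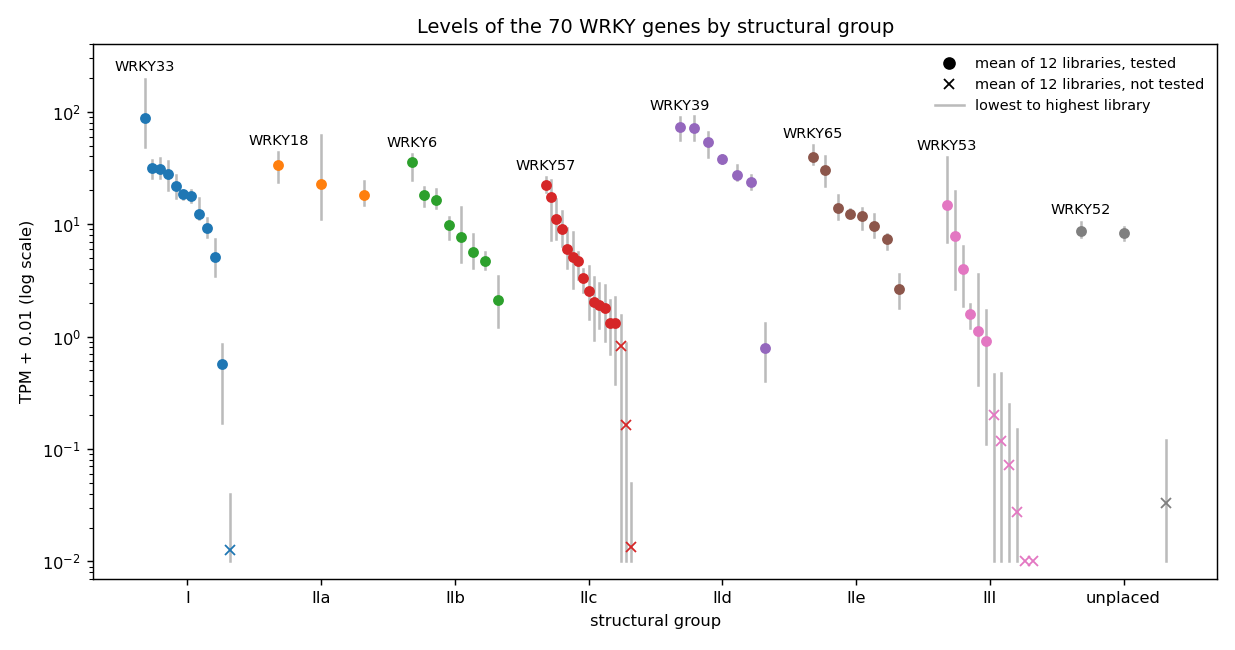
Mean level over the 12 libraries of each of the 70 WRKY genes, by structural group, as TPM + 0.01 on a log axis; grey lines run from the lowest to the highest library and crosses mark the 11 members that were not tested. Group IId holds 3 of the 5 highest members, and 6 of the 11 untested members lie in group III.

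The count filter kept 59 members for testing. The 11 others were *WRKY10*, *WRKY34*, *WRKY43*, *WRKY55*, *WRKY59*, *WRKY62*, *WRKY63*, *WRKY64*, *WRKY66*, *WRKY67* and *WRKY68*, which had 0 to 65 counts over all 12 libraries, and 2 of them, *WRKY64* and *WRKY67*, had 0 throughout, which allows up to 3 counts in each library. A member was called when its edgeR quasi-likelihood p-value, adjusted over all 20957 genes tested, was below 0.01. There were 13 calls over the 6 comparisons, and they fell on 8 members. The other 51 tested members were called nowhere. Per-library values below are TPM, which are length-scaled but differ in scale between genotypes: over all genes, the median log2 difference in TPM from WT was 0.14 in *phyB* and 0.10 in *jazQ phyB* (with 1 added to each value), against 0.01 and 0.00 after the scaling used for the tests.

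**Figure D2:**
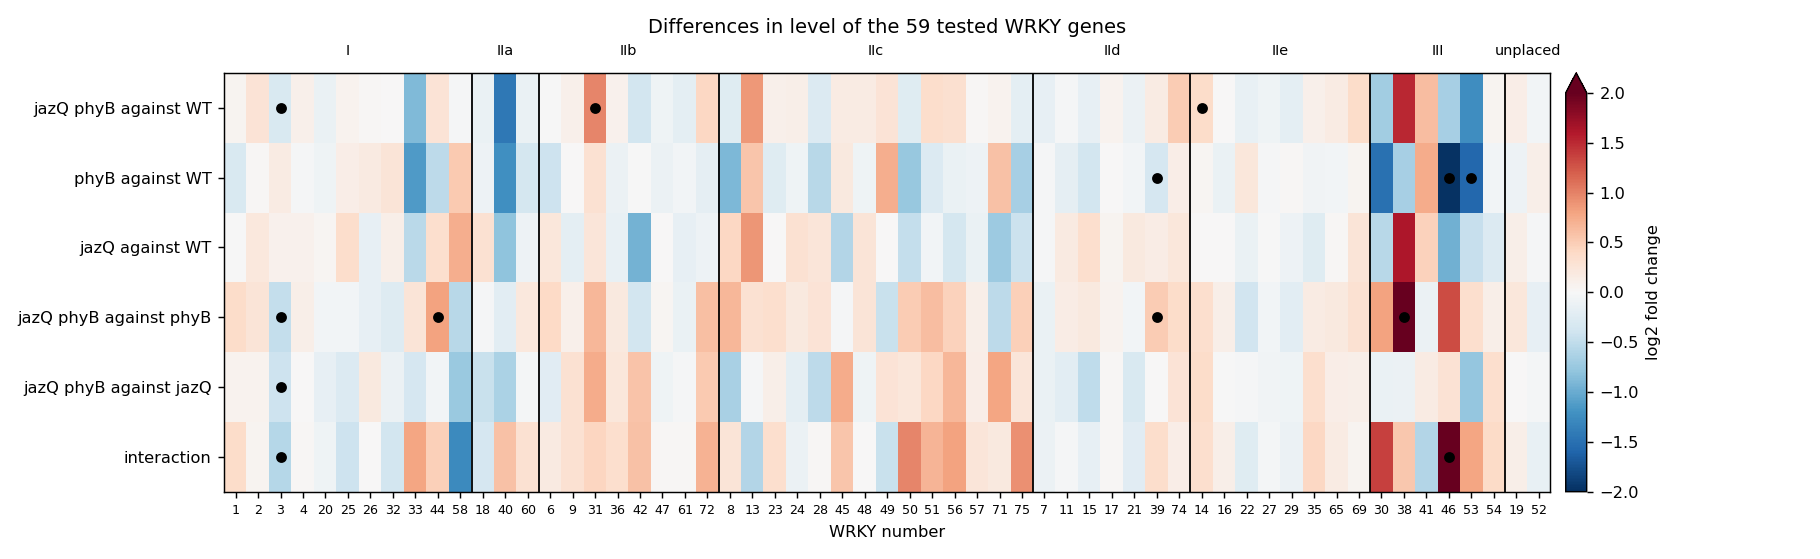
Log2 fold changes of the 59 tested WRKY genes (columns, by group and number) in the 6 comparisons (rows), from the edgeR fit; black dots mark the 13 calls. The interaction is the difference between the effect of *jazQ* in the *phyB* background and in the WT background. *WRKY3* holds 4 of the dots.

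The first question was how the family differed from WT with the *jazQ* mutations, with *phyB*, and with both together. In *jazQ phyB*, 3 of 59 members were called, 2 higher and 1 lower, while 9.77% of all tested genes were called (3.75% higher and 6.02% lower). In *phyB*, 3 of 59 members were called, all lower, and 11.8% of all tested genes were called (7.06% lower). In *jazQ*, none of 59 members was called by edgeR or by DESeq2, and 1.54% of all tested genes were. At an unadjusted p below 0.05, 12 members (20.3%) differed between *jazQ* and WT, as did 17.2% of all tested genes. Of the tissue markers, 4 of 5 for photosynthetic cells were lower and 2 of 11 for roots higher in *phyB* than in WT. In *jazQ phyB* against WT, 2 of 5 were lower and 4 of 11 higher.

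*WRKY46* was lower in *phyB*. It is a group III member, AT2G46400 at chr2:19043411-19044955, known from basal immunity, drought and brassinosteroid responses. Levels were 12, 7.31 and 6.45 TPM in *jazQ phyB*, 2.64, 4.16 and 3.95 in *phyB*, 7.08, 7.83 and 4.88 in *jazQ*, and 10, 8.52 and 19.6 in WT. All 3 *phyB* libraries lay below all 9 others. Against WT, *WRKY46* fell by 1.98 on the log2 scale in *phyB* (SE 0.35, edgeR adjusted p = 0.00107), and the call held in all alternative fits and with any 1 library left out. In *jazQ* the difference from WT was -0.96 (SE 0.31, adjusted p = 0.115) and in *jazQ phyB* it was -0.67 (SE 0.30, adjusted p = 0.149).

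*WRKY46* also differed in its response to *jazQ* between backgrounds. The effect of *jazQ* was 1.31 on the log2 scale in the *phyB* background (SE 0.36, adjusted p = 0.0174) and -0.96 in the WT background. The interaction was 2.26 (SE 0.47, 95% interval 1.33 to 3.19, edgeR adjusted p = 0.00893), in a comparison in which 2 of 59 members were called, 1 on each side of 0, with 3.61% of all tested genes (1.9% above 0 and 1.7% below). That call lay close to the threshold. It was lost when any *jazQ* or *phyB* library or *jazQ phyB* replicate 1 or 2 was left out, with adjusted p up to 0.0308 and log2 values of 1.92 to 2.39. It was also lost in the TPM fits (adjusted p 0.0141 and 0.0154). Without WT replicate 3 the interaction was 1.79 (adjusted p = 0.00813) and the *jazQ* effect in the WT background was -0.49 (adjusted p = 0.333).

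*WRKY53*, AT4G23810 at chr4:12392370-12393982, promotes leaf senescence and had 2 of the W-boxes shown above. It stood at 13.6, 9.83 and 8.07 TPM in *jazQ phyB*, 6.86, 8.72 and 10.2 in *phyB*, 18.9, 20.1 and 11.6 in *jazQ*, and 11.7, 19.3 and 39.3 in WT. The *phyB* libraries lay below those of WT, which themselves spread over more than 3-fold. In *phyB* it fell by 1.57 (SE 0.38, adjusted p = 0.00919) against WT. The call was lost without any 1 of 10 libraries, and without WT replicate 3 the value was -0.92 (adjusted p = 0.0343). It was also lost with only the 2 genotypes compared (adjusted p = 0.0189) and in both TPM fits (limma adjusted p 0.0177 and 0.0182). The annotated gene overlaps its neighbour AT4G23800 by 341 bases. That neighbour was not called in *phyB* (log2 0.23, adjusted p = 0.0275), and reads of the overlap cannot be told apart without strand.

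*WRKY39*, AT3G04670 at chr3:1266056-1268378, was the second most abundant member and showed a small change with little spread. Levels were 76.9, 84.4 and 89.6 TPM in *jazQ phyB*, 56.1, 61 and 64.2 in *phyB*, 73, 77.1 and 81.1 in *jazQ*, and 68.2, 73 and 66.4 in WT. The *phyB* libraries were again the 3 lowest of the 12. In *phyB* it fell by 0.34 (SE 0.07, adjusted p = 0.00295) against WT, a level 0.792 times that of WT. On log2(TPM + 1) the difference was -0.19 (limma adjusted p = 0.0532), while the median of all genes was 0.14 on that scale. The call was also lost without WT replicate 2, *phyB* replicate 1 or *phyB* replicate 2, with adjusted p of 0.0144 to 0.0195.

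**Figure D3:**
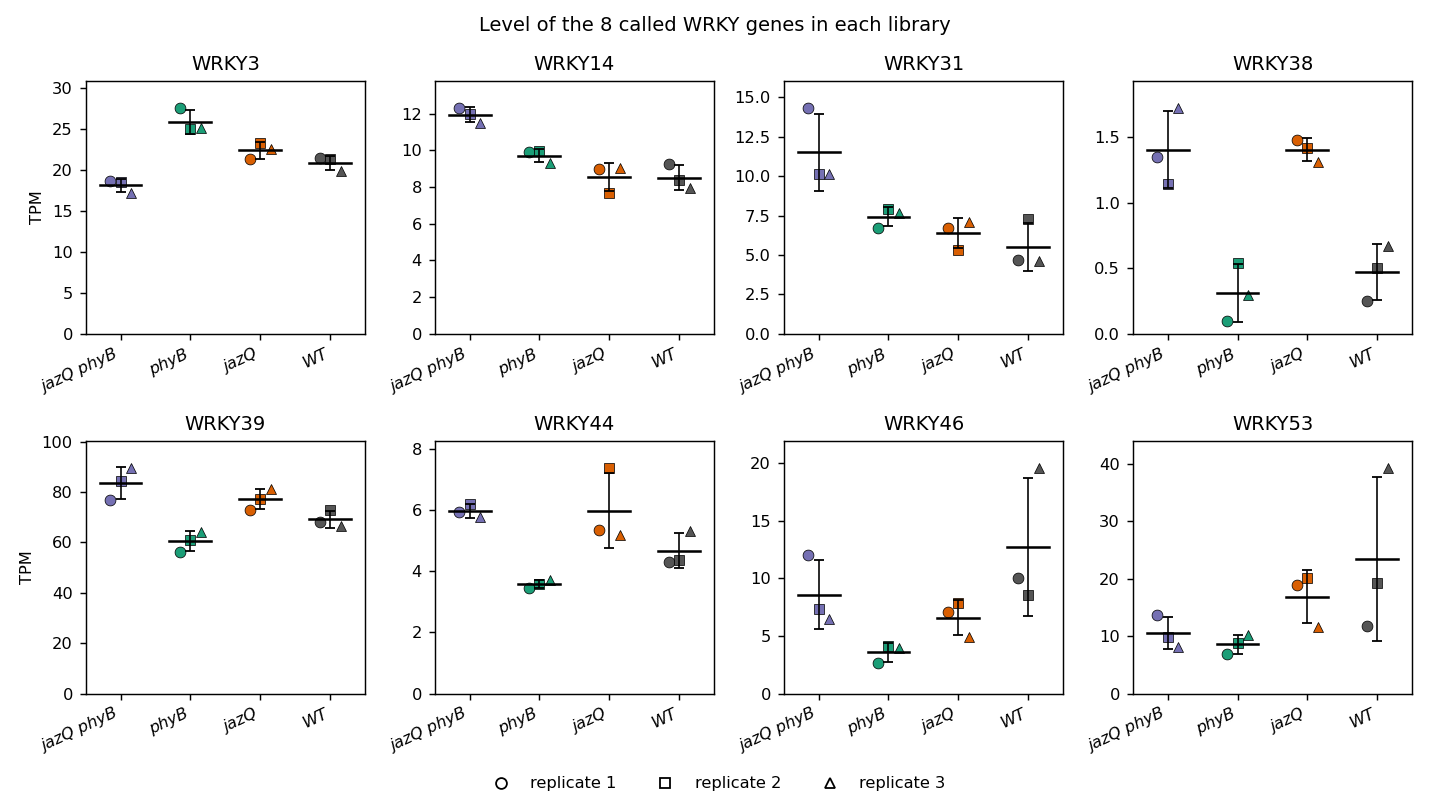
TPM of the 8 called WRKY genes in each library, by genotype; horizontal bars are the mean and vertical bars the SD of 3 libraries, and symbols give the replicate number. *WRKY39*, *WRKY44* and *WRKY46* are lowest in the 3 *phyB* libraries, and *WRKY3* is lowest in the 3 *jazQ phyB* libraries.

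In *jazQ phyB*, *WRKY31* and *WRKY14* were higher and *WRKY3* was lower than in WT. *WRKY31*, a group IIb member, AT4G22070 at chr4:11691172-11694590, had 14.3, 10.1 and 10.1 TPM in *jazQ phyB*, 6.73, 7.89 and 7.63 in *phyB*, 6.73, 5.33 and 7.12 in *jazQ*, and 4.71, 7.27 and 4.6 in WT. The *jazQ phyB* libraries were the 3 highest of the 12. The increase over WT was 0.98 on the log2 scale (SE 0.18, adjusted p = 0.00167), a 1.98-fold difference. Without *jazQ phyB* replicate 1 it was 0.78 (adjusted p = 0.0109) and without WT replicate 1 it was 0.86 (adjusted p = 0.0103). Against *phyB* the difference was 0.67 (SE 0.18, adjusted p = 0.0147) and against *jazQ* 0.74 (SE 0.18, adjusted p = 0.0123), neither called at 0.01.

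*WRKY14*, a group IIe member, AT1G30650 at chr1:10868218-10871297, had 12.3, 12 and 11.5 TPM in *jazQ phyB*, 9.89, 9.94 and 9.31 in *phyB*, 8.96, 7.67 and 9.05 in *jazQ*, and 9.24, 8.36 and 7.94 in WT. The *jazQ phyB* libraries were the 3 highest. The increase over WT was 0.37 (SE 0.09, adjusted p = 0.00789), a 1.29-fold difference. DESeq2 gave an adjusted p of 0.0132 and the fit of only the 2 genotypes 0.0218, and the call was lost without any 1 of 8 libraries (adjusted p up to 0.0381).

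*WRKY3* held 4 of the 13 calls. Its level was lower in *jazQ phyB* than in each other genotype, and its interaction was below 0. *WRKY3*, a group I member needed with its close relative *WRKY4* for resistance to necrotrophs, lies at AT2G03340, chr2:1014350-1017222. Levels were 18.6, 18.5 and 17.2 TPM in *jazQ phyB*, 27.5, 24.9 and 25.1 in *phyB*, 21.3, 23.3 and 22.5 in *jazQ*, and 21.4, 21.3 and 19.8 in WT. The *jazQ phyB* libraries were the 3 lowest and the *phyB* libraries the 3 highest. In *jazQ phyB*, *WRKY3* fell by 0.48 against *phyB* (SE 0.06, adjusted p = 0.000155), by 0.41 against *jazQ* (SE 0.06, adjusted p = 0.000926) and by 0.31 against WT (SE 0.06, adjusted p = 0.00361).

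In the single mutants, the difference of *WRKY3* from WT was 0.16 in *phyB* (SE 0.06, adjusted p = 0.0821) and 0.09 in *jazQ* (SE 0.06, adjusted p = 0.502). The interaction was -0.57 (SE 0.09, 95% interval -0.75 to -0.39, adjusted p = 0.00161). This call and that against *phyB* held in all alternative fits and with any 1 library left out, while the call against *jazQ* was lost in both TPM fits (limma adjusted p 0.0108 and 0.011). The difference from WT was lost without WT replicate 1 or 2 or *jazQ phyB* replicate 1 or 3 (adjusted p up to 0.0159) and with only the 2 genotypes compared (adjusted p = 0.0153), and on log2(TPM + 1) it was -0.19 (limma adjusted p = 0.0511). On that scale *WRKY3* was called higher in *phyB* than in WT (0.30, limma adjusted p = 0.00505), while the median of all genes was 0.14. *WRKY4* had means of 19.1 ± 1.19 TPM in *jazQ phyB*, 18 ± 0.43 in *phyB*, 17.6 ± 0.271 in *jazQ* and 16.4 ± 0.707 in WT (SD, n = 3 libraries each), with edgeR interaction 0.03 (SE 0.10, adjusted p = 0.88).

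A second question was what *jazQ* did in plants that already lacked *PHYB*, and what *phyB* did in plants that already carried the *jazQ* mutations. Between *jazQ phyB* and *phyB*, 4 of 59 members were called, 3 higher and 1 lower, against 11.8% of all tested genes (6.01% higher and 5.76% lower). There, 4 of 5 markers of photosynthetic cells and 2 of 11 root markers were higher. Between *jazQ phyB* and *jazQ*, 1 of 59 members, *WRKY3*, was called, lower in *jazQ phyB*, against 6.79% of all tested genes (4.15% lower), and 4 of 11 root markers were higher and 2 of 5 photosynthetic markers lower. The comparisons share libraries, so their values are only set side by side.

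*WRKY39*, whose levels stand above, was 1.41-fold higher in *jazQ phyB* than in *phyB* (log2 0.50, SE 0.07, adjusted p = 0.000169). The call held in all alternative fits and with any 1 library left out. In *jazQ* the difference from WT was 0.15 (SE 0.07, adjusted p = 0.265), and the interaction was 0.35 (SE 0.10, adjusted p = 0.0355).

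*WRKY44*, also known as *TTG2*, acts in trichome formation and in the seed coat. This group I member, AT2G37260 at chr2:15644811-15647076, carries the G-box shown above 183 bases before its start. It had 5.95, 6.22 and 5.77 TPM in *jazQ phyB*, 3.47, 3.6 and 3.73 in *phyB*, 5.35, 7.4 and 5.2 in *jazQ*, and 4.31, 4.38 and 5.34 in WT. The 3 *phyB* libraries were the lowest and differed little among themselves. Against WT, *WRKY44* stood at -0.53 in *phyB* (SE 0.16, edgeR adjusted p = 0.0262). The interaction was 0.48 (SE 0.21, adjusted p = 0.18), and neither was called at 0.01. *WRKY44* was 1.76-fold higher in *jazQ phyB* than in *phyB* (log2 0.81, SE 0.15, adjusted p = 0.00186), and the call was lost without *phyB* replicate 2 or *jazQ phyB* replicate 1 (adjusted p 0.0121 and 0.0111).

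*GL1*, the MYB factor that starts trichomes, was likewise higher in *jazQ phyB* than in *phyB*. It had 5.27, 6.6 and 7.11 TPM in *jazQ phyB*, 2.64, 2.1 and 1.94 in *phyB*, 3.67, 5.47 and 5.51 in *jazQ*, and 3.29, 5.88 and 3.47 in WT. The difference between *jazQ phyB* and *phyB* was 1.53 (SE 0.27, adjusted p = 0.00118). *GL2*, a target of *WRKY44* in trichomes, was not called in any of the 6 comparisons and had 2.73 to 3.99 TPM in *phyB* and 2.58 to 3.53 TPM in WT. The part of the number of trichome cells in the *WRKY44* result was not tested.

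*WRKY38*, AT5G22570 at chr5:7495455-7496990, is a group III repressor of basal defense that rests on few reads here. It had 22, 14 and 20 counts in *jazQ phyB*, 1, 5 and 4 in *phyB*, 20, 16 and 14 in *jazQ*, and 5, 5 and 9 in WT. In TPM these were 1.35, 1.14 and 1.72 in *jazQ phyB*, 0.1, 0.54 and 0.3 in *phyB*, 1.48, 1.42 and 1.31 in *jazQ*, and 0.25, 0.5 and 0.67 in WT. All 6 libraries with *jazQ* lay above all 6 without it. Against *phyB*, *WRKY38* was 4.47-fold higher in *jazQ phyB* (log2 2.16, SE 0.45, 95% interval 1.28 to 3.04, adjusted p = 0.00344), with adjusted p of 0.0124 to 0.0188 without *phyB* replicate 1 or 3 or *jazQ phyB* replicate 1 or 3. Against WT, the difference was 1.50 in *jazQ phyB* (SE 0.39, adjusted p = 0.0155) and 1.62 in *jazQ* (SE 0.40, adjusted p = 0.0325), neither called at 0.01. Its partner repressor *WRKY62* had 15 counts in all and was not tested.

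The spread between replicate libraries was uneven. The highest of the 3 libraries exceeded the lowest by a median factor of 1.22 over the 59 members in *jazQ phyB*, 1.21 in *phyB*, 1.27 in *jazQ* and 1.35 in WT. Over all tested genes with reads in each library of the genotype the medians were 1.17 in *jazQ phyB*, 1.14 in *phyB*, 1.17 in *jazQ* and 1.18 in WT. In WT, 13 of 59 members differed at least 2-fold between libraries, compared with 5.16% of all tested genes. The same held for 3 members in *jazQ phyB* (3.35% of all genes), 6 in *phyB* (3.74%) and 4 in *jazQ* (5.52%). Some of the 13 had few reads, such as *WRKY58* with 15, 2 and 7 counts in WT, and others had many, such as *WRKY33* with 2836, 2080 and 5051.

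WT replicate 3 stood apart for some members. It was at least 1.5-fold above every other library for 5 members, *WRKY30*, *WRKY33*, *WRKY40*, *WRKY46* and *WRKY53*, and for 0.329% of all tested genes. *WRKY33*, AT2G38470 at chr2:16108235-16110766, had 94.7, 68.4 and 61.5 TPM in *jazQ phyB*, 48.7, 68.3 and 76.5 in *phyB*, 101, 103 and 59.8 in *jazQ*, and 75.6, 109 and 197 in WT. *WRKY40*, AT1G80840 at chr1:30383561-30385499, had 19.7, 13.2 and 11.1 TPM in *jazQ phyB*, 15.5, 18.7 and 18.6 in *phyB*, 20.8, 29.1 and 14.1 in *jazQ*, and 19.9, 29.5 and 62.2 in WT. *WRKY30* had 0.82, 1.21 and 1.21 TPM in *jazQ phyB*, 0.81, 0.75 and 0.36 in *phyB*, 1.21, 1.11 and 0.88 in *jazQ*, and 0.44, 0.78 and 3.6 in WT. *MPK3*, a kinase that phosphorylates *WRKY33*, also stood highest there, with 106 to 114 TPM in *jazQ phyB*, 107 to 121 in *phyB*, 101 to 130 in *jazQ*, and 107, 122 and 197 in WT.

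**Figure D4:**
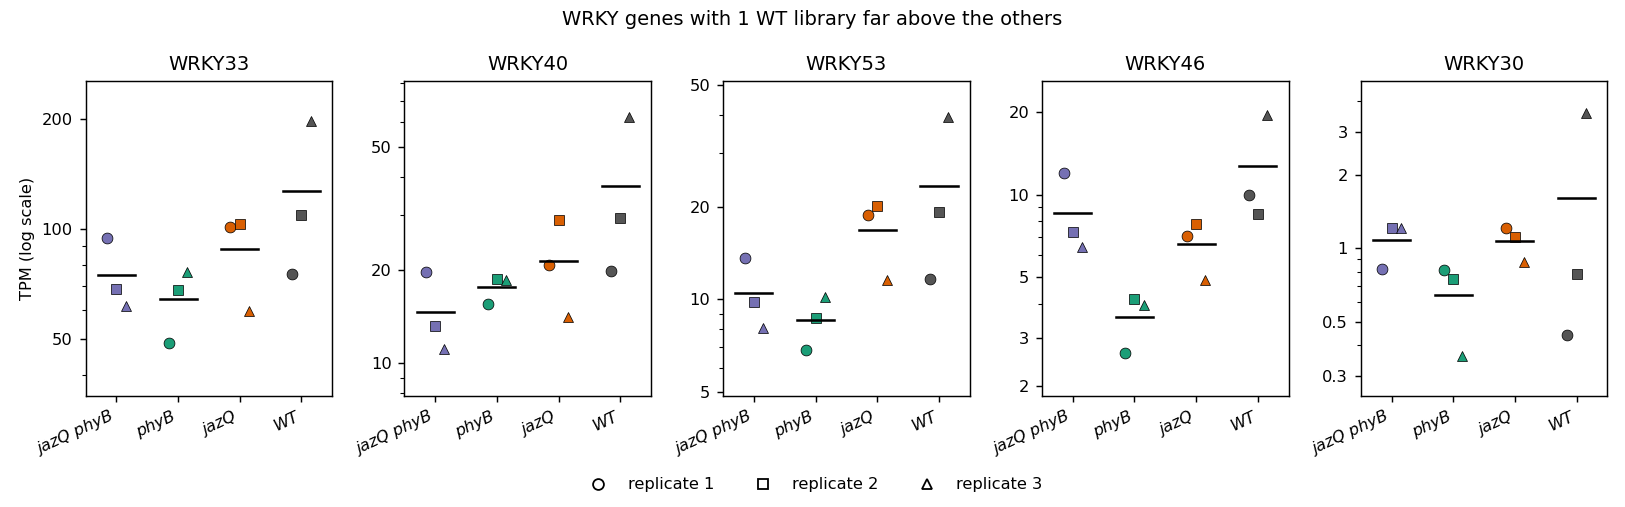
TPM on a log axis of 5 WRKY genes in each library, by genotype, with horizontal bars for the mean of 3 libraries and symbols for the replicate number. WT replicate 3 is the highest of the 12 libraries in each panel, by 1.63- to 2.98-fold over the next library.

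None of the differences of *WRKY33*, *WRKY40* and *WRKY30* was called with all libraries. *WRKY33* differed from WT by -0.88 in *jazQ phyB* (SE 0.31, adjusted p = 0.0603) and by -1.13 in *phyB* (SE 0.31, adjusted p = 0.0182). Without WT replicate 3 these were -0.39 (adjusted p = 0.33) and -0.64 (adjusted p = 0.0923). *WRKY40* differed by -1.43 in *jazQ phyB* (SE 0.36, adjusted p = 0.0132) and by -1.22 in *phyB* (SE 0.36, adjusted p = 0.0272), and without WT replicate 3 by -0.80 (adjusted p = 0.0573) and -0.59 (adjusted p = 0.148). The gene *WRKY40* overlaps its neighbour AT1G80850 by 51 bases, which was itself lower in *phyB* than in WT (-0.60, adjusted p = 0.00129), and *WRKY33* overlaps AT2G08965, which was not tested, by 272 bases. *WRKY46* in *phyB* stood at -1.50 without WT replicate 3 (adjusted p = 0.00227).

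Leaving out WT replicate 3 also brought the only calls between *jazQ* and WT. *WRKY15*, a regulator of growth under oxidative and osmotic stress, had 85.8, 91.4 and 90.8 TPM in *jazQ* and 56.9, 63.3 and 89.8 in WT. *WRKY18* had 34, 42.1 and 42.1 TPM in *jazQ* and 26.7, 23.9 and 43.4 in WT. With all libraries the differences were 0.34 (SE 0.14, adjusted p = 0.205) and 0.31 (SE 0.18, adjusted p = 0.43). Without WT replicate 3 they were 0.59 (adjusted p = 0.00122) and 0.64 (adjusted p = 0.00828).

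Directions over the family are given as counts only. In *phyB*, 39 of 59 members had a log2 value below 0 against WT, with a median of -0.08, while 48.8% of all tested genes were below 0 and their median was 0.01. On log2(TPM + 1) 21 members were below 0, but 42 were below the median of all genes on that scale, compared with 41 in the edgeR fit. In *jazQ phyB* against *phyB*, 39 members were above 0 with a median of 0.19, and the median of all tested genes was 0.00. In *jazQ phyB* against WT, 32 members were above 0, and 49.7% of all tested genes were below it. On log2(TPM + 1) 43 members were above 0, where 30.2% of all genes were below it. In *jazQ* against WT, 29 members were above 0 and 52.6% of all tested genes below it. For the interaction, 40 members were above 0 with a median of 0.13, while 49.6% of all tested genes were below 0, and on log2(TPM + 1) 34 members were above 0. The 40 included 8 of 8 in group IIb. In that group edgeR and DESeq2 made 0 interaction calls, and 2 members had an unadjusted p below 0.05. The direction counts use all libraries and moved in part without WT replicate 3. In *phyB* against WT, members below 0 then fell from 10 to 8 of 14 in group IIc. They fell from 5 to 4 of 11 in group I and from 5 to 4 of 7 in group IId. Falls from 4 to 3 of 8 in group IIe and from 3 to 2 of 3 in group IIa were also seen. Group IIb alone rose, from 6 to 7 of 8, and group III stayed at 5 of 6. For the interaction, members below 0 rose from 5 to 7 of 11 in group I. They rose from 4 to 5 of 7 in group IId and from 1 to 2 of 6 in group III. Group IIa went from 1 to 2 of 3, and no group had fewer below 0.

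The differences of single structural groups rested in part on 1 library. The 6 tested members of group III had a median of -1.08 in *phyB* against WT, with 2 called lower, *WRKY46* and *WRKY53*, but without WT replicate 3 the median was -0.14 and only *WRKY46* was called. Without that library *WRKY30* stood at -0.01, against -1.50 with it. With all libraries, *WRKY41* stood at 0.74 (adjusted p = 0.0614) in *phyB* and *WRKY54* at -0.06 (adjusted p = 0.873). The 3 members of group IIa were all below 0 in *jazQ phyB* and in *phyB* against WT, with medians of -0.14 and -0.35. Without WT replicate 3, *WRKY18* stood above 0 in both, at 0.19 in *jazQ phyB* and 0.22 in *phyB*. With all libraries, neither edgeR nor DESeq2 called any of them, and 1 of 3 had an unadjusted p below 0.05 in each of these comparisons. Group IIe had a median of -0.01 in *phyB*, and its pathogen-response members *WRKY22* and *WRKY29* stood at 0.23 (adjusted p = 0.258) and 0.02 (adjusted p = 0.944). Group I, with 11 tested, had a median of 0.02.

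Other well-known members stayed short of the threshold. *WRKY75*, which acts in phosphate starvation and senescence, differed from WT by -0.19 in *jazQ phyB* (adjusted p = 0.555), -0.67 in *phyB* (adjusted p = 0.0325) and -0.43 in *jazQ* (adjusted p = 0.294). *WRKY6*, a senescence and phosphate regulator, stood at -0.41 in *phyB* (SE 0.12, adjusted p = 0.0225), and DESeq2 called it. *WRKY42*, its partner in repressing a phosphate exporter gene, had 1.21, 1.34 and 1.24 TPM in *jazQ* and 2.47, 3.41 and 1.5 TPM in WT (log2 -0.94, SE 0.28, adjusted p = 0.0789). *WRKY23*, a root and embryo regulator, stood between -0.24 and 0.34 in the 6 comparisons. *WRKY25*, a heat-responsive member, was at 0.35 in *jazQ* against WT (SE 0.10, adjusted p = 0.0604), and *WRKY60* at -0.35 in *phyB* (adjusted p = 0.157).

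Several members had an adjusted p between 0.01 and 0.05. *WRKY1* was at 0.36 in *jazQ phyB* against *phyB* (SE 0.09, adjusted p = 0.0101). *WRKY72*, a basal immunity member, was at 0.60 there (SE 0.15, adjusted p = 0.0127), with 8.08, 7.73 and 6.71 TPM in *jazQ phyB* and 4.19, 5.56 and 5.42 in *phyB*. *WRKY49* was at 0.72 in *phyB* against WT (SE 0.22, adjusted p = 0.0277), with 7.08, 8.45 and 6.54 TPM in *phyB* and 4.38, 4.46 and 3.17 in WT. *WRKY8* was at -0.90 (SE 0.30, adjusted p = 0.0419) and *WRKY28* at -0.55 (SE 0.17, adjusted p = 0.0358) in *phyB*. *WRKY69* was at 0.36 in *jazQ phyB* against WT (SE 0.11, adjusted p = 0.0339), and it overlaps AT3G58720 by 373 bases.

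Other genes of the pathway came from short lists of kinases, partners and targets. Over the 6 comparisons, neither edgeR nor DESeq2 called any of the 5 MAP kinase genes, with 2 unadjusted edgeR p-values below 0.05 among 30. Their summed level was 227 to 239 TPM in *jazQ phyB*, 234 to 250 in *phyB*, 221 to 247 in *jazQ* and 230 to 318 in WT. Of 5 VQ-motif partners, 2 were called lower in *jazQ phyB* (6.02% of all tested genes were) and 1 in *phyB* (7.06% were). In *jazQ* edgeR called 0 of 5 (1.54% of all tested genes were). An unadjusted p below 0.05 was found for 3 of 5, and for 17.2% of all tested genes. DESeq2 called 3, a count with no share of all genes to set it against. *SIB1*, which binds *WRKY33*, had 6.25, 5.1 and 4.1 TPM in *jazQ phyB*, 7.65, 7.81 and 7.05 in *phyB*, 5.75, 7.12 and 5.07 in *jazQ*, and 10.1, 10.4 and 13.6 in WT. All 9 mutant libraries lay below all 3 WT libraries. *SIB1* fell by 1.24 in *jazQ phyB* (SE 0.18, adjusted p = 0.000387) and by 0.75 in *phyB* (SE 0.18, adjusted p = 0.00906), and in *jazQ* it stood at -0.93 (SE 0.18, adjusted p = 0.0107). *SIB2*, its close relative, was at -0.61 in *jazQ* (SE 0.12, adjusted p = 0.0105). *JAV1*, a repressor of jasmonate defense, fell by 0.62 in *jazQ phyB* (SE 0.14, adjusted p = 0.00633) and stood at -0.47 in *phyB* (adjusted p = 0.0262) and -0.62 in *jazQ* (adjusted p = 0.0225).

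Of 8 targets, 7 were tested, since *TT12* had almost no reads. In *phyB*, 3 of 7 were called against WT, with 2 camalexin genes lower and *FRK1* higher, compared with 11.8% of all tested genes (7.06% lower). *PAD3*, the last enzyme of camalexin synthesis and a *WRKY33* target, had 4.37, 4.26 and 3.16 TPM in *jazQ phyB*, 1.87, 1.29 and 1.56 in *phyB*, 6.19, 5.29 and 2.55 in *jazQ*, and 4.54, 2.36 and 4.44 in WT. The *phyB* libraries were the 3 lowest, and *PAD3* fell by 1.44 in *phyB* against WT (SE 0.34, adjusted p = 0.00758). *CYP71A13*, an earlier enzyme of the pathway, fell by 1.54 in *phyB* (SE 0.21, adjusted p = 0.000177) and was 0.98 higher in *jazQ phyB* than in *phyB* (SE 0.22, adjusted p = 0.0057).

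*CYP71A12*, a near copy of *CYP71A13* whose reads may be split between both, had 4.26, 3.83 and 2.64 TPM in *jazQ phyB*, 1.16, 1.08 and 1.04 in *phyB*, 1.18, 1.31 and 1.06 in *jazQ*, and 2.22, 1.07 and 1.99 in WT. Its interaction was 2.38 (SE 0.38, adjusted p = 0.00175). *FRK1*, a receptor kinase gene used as an immune marker, was 0.65 higher in *phyB* than in WT (SE 0.15, adjusted p = 0.0069). *ACS6*, an ethylene synthesis gene, fell by 0.88 in *jazQ phyB* (SE 0.18, adjusted p = 0.00386) and by 1.00 in *jazQ* (SE 0.19, adjusted p = 0.00734) against WT.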

How the data were processed

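The authors aligned single-end reads of the 12 libraries to TAIR10 gene models with RSEM 1.2.11 at default settings and deposited 1 expected count and 1 TPM value for each gene and library. The expected counts were whole numbers (100%), so they were used without rounding, and 0 rows lacked a gene and 0 columns were left out. RSEM splits reads that match several genes, and the sources used here do not state strand, so close copies and overlapping genes are uncertain. The deposited TPM are scaled by transcript length and library size, and they are printed here as levels. Libraries were placed in genotypes by their labels, and the replicates were independent samples of pooled seedlings.

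Counts were scaled with TMM factors in edgeR 4.0.16 (R 4.3.3) and filtered with filterByExpr at a minimum count of 10, which left 20957 genes. A quasi-likelihood model with genotype was fitted to all libraries and tested in 6 comparisons, with Benjamini-Hochberg adjustment over all genes and calls below 0.01. The study used DESeq at the same threshold. Each SE is the log2 fold change over the square root of the F statistic. All p-values are two-sided. The interaction is the log2 effect of *jazQ* in the *phyB* background less that in the WT background. The scripts were tested on simulated data. No 2 replicates agreed within sampling noise (chi-square per degree of freedom 2.25 to 14.7).

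The alternatives were DESeq2 1.42.0, upper-quartile scaling, only the 2 genotypes compared, no filter, at least 10 counts in every library, limma-trend (limma 3.58.1) on log2(TPM + 1) and log2(TPM + 0.1), a replicate block, an adjusted p below 0.05, and each library left out in turn. Positions, W-boxes and coding sequences came from the RefSeq annotation of TAIR10.1, since the deposited tables hold no coordinates, and motifs were searched in the 500 bases before each gene start with 12 bases shown on each side. No protein table was used. The named members were those called, then those with the next smallest adjusted p up to 25, the 5 highest, and 13 well-known members, 33 in all. Genes of the pathway and tissue markers came from short lists. The members and lists were chosen with earlier results of these data known. Intervals and limits cover the error of these counts and samples only.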

Additional observations from a re-analysis of the deposited data

Results flagged for a closer look

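The effect of *jazQ* differed between the *phyB* and WT backgrounds for 2 of 59 members (3.39%) and 3.61% of all tested genes. These calls came from the interaction term of the edgeR fit, with p-values adjusted over all tested genes by the Benjamini-Hochberg method.

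For *WRKY46*, the effect was 2.26 higher on the log2 scale in the *phyB* background (SE 0.47, adjusted p = 0.00893). The *jazQ* effect was 1.31 in the *phyB* background (adjusted p = 0.0174) and -0.96 in the WT background (adjusted p = 0.115). Neither was called at 0.01, and without WT replicate 3 the effect in the WT background was -0.49 (adjusted p = 0.333). All 3 *jazQ phyB* libraries lay above all 3 *phyB* libraries, and all 3 *jazQ* libraries lay below all 3 WT libraries. Over all alternatives the adjusted p ran from 0.00217 with DESeq2 to 0.0308 without *jazQ phyB* replicate 1, and the call was also lost in both TPM fits.

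For *WRKY3*, the interaction was -0.57 (SE 0.09, adjusted p = 0.00161). The *jazQ* effect was -0.48 in the *phyB* background and 0.09 in the WT background. All 3 *jazQ phyB* libraries lay below all 3 *phyB* libraries, while *jazQ* and WT overlapped. Over all alternatives the adjusted p ran from 0.000122 with DESeq2 to 0.00543 without *phyB* replicate 1. *WRKY4*, its close relative, had an interaction of 0.03 (adjusted p = 0.88).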

How the results depend on the processing

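The 38 member results examined were those of the named members with an adjusted p below 0.05 in the fit used for the tests. None of their log2 values turned round under any alternative, but results picked in this way are unlikely to do so. Results outside this set did turn: *WRKY18* in *phyB* against WT went from -0.10 to 0.22 without WT replicate 3. The counts of members called in the fit used for the tests were 3 in *jazQ phyB*, 3 in *phyB* and 0 in *jazQ* against WT, 4 in *jazQ phyB* against *phyB*, 1 in *jazQ phyB* against *jazQ*, and 2 for the interaction. At an adjusted p below 0.05 they were 7, 12, 1, 12, 6 and 3. DESeq2 called 8 members in *jazQ phyB* against *phyB* and 3 against *jazQ*, and upper-quartile scaling called 3 against *jazQ*. With only the 2 genotypes compared, 1 member was called in *jazQ phyB* against WT, 7 against *phyB* and 2 against *jazQ*. Without a filter, 8 were called against *phyB* and 2 against *jazQ*. Both TPM fits called 1 for the interaction. Shares of all tested genes called are given only for the fit used for the tests, at an adjusted p below 0.01. The counts under other settings, here and in the paragraphs below, are therefore not set against such a share.

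With each library left out in turn, the counts ran from 0 to 3 in *jazQ phyB*, 1 to 6 in *phyB* and 0 to 2 in *jazQ* against WT, 2 to 6 in *jazQ phyB* against *phyB*, 1 to 2 against *jazQ*, and 1 to 2 for the interaction. The 0 in *jazQ phyB* came without its replicate 1 and the 6 in *phyB* without WT replicate 1, which added *WRKY6*, *WRKY33* and *WRKY40*. The cause of these moves was not tested.

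With the replicate number as a replicate block, the counts were 3 in *jazQ phyB*, 3 in *phyB* and 0 in *jazQ* against WT, 4 against *phyB*, 1 against *jazQ*, and 1 for the interaction, where *WRKY46* was lost (adjusted p = 0.0163). In *phyB* the block lost *WRKY53* (adjusted p = 0.016) and added *WRKY49*. By the methods of the study the genotypes shared plates, but nothing ties a replicate number to a plate, and the numbers were not shown to pair the libraries: same-numbered libraries correlated at -0.17 to 0.262 over 18 pairs, and 7 of 12 were closest to their own number. Members with few reads, such as *WRKY38*, are limited by depth, and the 11 untested members by the filter.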
